A study of Mus musculus with 3 samples.

Results

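Cubn, Amn, Lrp2, Dab2 and Lrpap1, 5 of the 32285 genes in the count tables, encode the machinery with which the visceral endoderm (VE) takes up protein at its apical surface. They were chosen by name for their known role in endocytosis, with earlier results of these data known. Their levels and covariation were described among VE cells of BELAs and of VE cysts, 2 kinds of aggregate grown from mouse embryonic stem cells. All 3 cultures used E14tg2a embryonic stem cells with a doxycycline-inducible GATA4-mCherry transgene (iGATA line), and the labels name the single clone C6 for BELAs and VE cysts and no clone for Epi cysts. GATA4 is a transcription factor that directs these cells to the primitive endoderm, the precursor of the VE. BELAs (bilayered embryo-like aggregates) had 0.5 µg/ml doxycycline in 2i and LIF for 8 h, then 16 h in N2B27, and grew for 3 days after seeding at 30000 cells per cm2, with VE cells around an epiblast (Epi) core. VE cysts had the same 8 h pulse, kept doxycycline during the 16 h, and were given 10 ng/ml FGF4 with 1 µg/ml heparin then and over the 3 days after seeding. Epi cysts were grown in matrigel from cells that had no doxycycline, for 1 day in 2i and LIF and then for 3 days in N2B27. Each aggregate type gave 1 library of many pooled structures, and BELAs and VE cysts were picked by hand for a round shape. With 1 library per type nothing checks a difference between libraries against replicates, and p-values are not given.

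Before the placenta forms, the VE feeds the embryo by endocytosis of maternal protein, lipoprotein and vitamin carriers, as the proximal tubule of the kidney does with filtered protein. Cubilin (Cubn) is a large receptor with no membrane-spanning part of its own. Amnionless (Amn) holds it in the membrane and brings it to the cell surface, and megalin (Lrp2), a giant member of the LDL receptor family, is internalized together with it. The adaptor Dab2 couples the tails of such receptors to clathrin, and the chaperone RAP (Lrpap1) keeps ligands off megalin and its relatives in the endoplasmic reticulum.

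The count tables held 1410 BELA cells, 657 Epi cyst cells and 625 VE cyst cells that had 4000 or more genes and no more than 10% mitochondrial UMIs (unique molecular identifiers, 1 for each captured mRNA molecule), at medians of 82741.5, 60160 and 58554 UMIs per cell. No cell barcode was shared between libraries. A cell was called VE if its UMIs of Gata6, Sox17, Dab2 and Cubn exceeded those of Pou5f1, Sox2, Nanog and Fgf4, and Epi otherwise. The rule gave 542 VE cells in BELAs (38.4% of cells), 577 in VE cysts (92.3%) and 1 in Epi cysts, and 868, 48 and 656 Epi cells. Cubn and Dab2 entered the rule, so that their direction between VE and Epi cells is not a result. The label of the cells fitted other VE genes. Gata4, Foxa2, Hnf4a, Sox7 and Ihh, VE genes that were not in the rule, were each at least 2-fold higher in VE than in Epi cells within BELAs and within VE cysts. GATA4 is also the factor that the transgene encodes, and the part of the transgene in the level of Gata4 was not tested. VE cells of VE cysts carried more transcripts of parietal endoderm genes, whose 13-gene list summed to 10673 CPM (UMIs per 1000000 UMIs of the group) in VE cells of BELAs and to 25006 CPM in VE cells of VE cysts, with 10 of 13 genes past 2-fold lower in BELAs. The part of that difference in the results below was not tested, except where values within a library are given.

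The 5 genes lie on 4 chromosomes of the mm10 genome (GRCm38, positions of GENCODE vM21). Cubn (ENSMUSG00000026726, chr2:13276338-13491813, minus strand) and Lrp2 (ENSMUSG00000027070, chr2:69424340-69586065, minus strand) are long genes of 67 and 79 exons on the same chromosome. Amn (ENSMUSG00000021278, chr12:111271095-111276426, plus strand) has 12 exons, Dab2 (ENSMUSG00000022150, chr15:6299788-6440712, plus strand) 15 and Lrpap1 (ENSMUSG00000029103, chr5:35091501-35105766, minus strand) 8. Cubn overlaps 1 annotated gene and Dab2 overlaps 2, all on the opposite strand. The others overlap none. The windows at the start sites (250 bases before to 50 after, RefSeq on GRCm38.p6) are shown for Cubn and Lrp2, the pair that covaried most, and for Lrpap1, which was detected in most Epi cells too. They are written 5′ to 3′ on the strand of the gene, and capitals mark GGGCGG, the core of a GC box to which SP1 factors bind.
Cubn (chr2:13491827-13492126, minus strand): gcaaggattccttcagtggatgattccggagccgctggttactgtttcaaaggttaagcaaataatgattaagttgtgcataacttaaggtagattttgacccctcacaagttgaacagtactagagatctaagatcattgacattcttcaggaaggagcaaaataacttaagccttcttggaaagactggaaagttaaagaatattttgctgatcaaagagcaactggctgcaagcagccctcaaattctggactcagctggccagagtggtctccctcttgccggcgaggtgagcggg
Lrp2 (chr2:69585980-69586279, minus strand): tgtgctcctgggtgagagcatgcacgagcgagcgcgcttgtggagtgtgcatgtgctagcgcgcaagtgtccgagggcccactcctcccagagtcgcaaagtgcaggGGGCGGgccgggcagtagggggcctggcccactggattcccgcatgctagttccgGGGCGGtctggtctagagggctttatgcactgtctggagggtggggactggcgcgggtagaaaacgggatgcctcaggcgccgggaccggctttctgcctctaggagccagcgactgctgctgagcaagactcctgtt
Lrpap1 (chr5:35105650-35105949, minus strand): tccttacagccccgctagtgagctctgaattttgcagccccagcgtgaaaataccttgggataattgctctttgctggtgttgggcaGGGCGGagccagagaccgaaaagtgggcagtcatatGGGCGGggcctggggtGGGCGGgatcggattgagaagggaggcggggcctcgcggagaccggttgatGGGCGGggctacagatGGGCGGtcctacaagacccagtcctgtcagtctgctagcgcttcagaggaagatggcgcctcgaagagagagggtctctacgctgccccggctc
The Cubn window held no GGGCGG, 5 CpG dinucleotides and 44.3% G and C. The Lrp2 window held 2 GGGCGG, 20 CpG and 65.0% G and C, and the Lrpap1 window 5 GGGCGG, 18 CpG and 61.3%. The Amn window had 1 GGGCGG on the opposite strand, 15 CpG and 62.3%. Dab2 has 2 windows, 1 with 2 CpG and 37.7% G and C and 1 with 19 CpG and 59.3%. Over all 32851 such windows of the genome the median was 7 CpG and 52.7% G and C, and 35.7% held GGGCGG on either strand. AGATAA, a site of GATA factors, was in 11.2% of all windows and in 1 of the 2 of Dab2, 14 bases past the start. CACGTG, the E-box, was in 7.15% of windows and in that of Amn, while TATAAA (in 13.6%) and CAAAGTCC (in 1.42%) were in none of the 6. All motifs were searched on both strands, and a match of letters does not show that a factor binds there.

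All 5 genes were abundant in VE cells of both libraries, and none differed by 2-fold between them with 5 CPM added to each level. Across all genes with at least 10 CPM in either group, 1.81% of 8213 were at least 2-fold higher in VE cells of BELAs than in those of VE cysts and 3.24% at least 2-fold lower, at a median log2 ratio of -0.12. Amn came closest. Of the 2 receptors, Cubn stood at 809 CPM (801 to 817, exact 95% Poisson interval) in VE cells of BELAs and at 1019 CPM (1009 to 1030) in VE cells of VE cysts, 1.26-fold lower in BELAs (1.24 to 1.28). Per cell, Cubn ran from 0 over a median of 716 to 2301 CPM in VE cells of BELAs and from 0 over a median of 858 to 2947 CPM in VE cells of VE cysts. Lrp2 stood at 439 CPM (434 to 445) in VE cells of BELAs and at 358 CPM (352 to 364) in VE cells of VE cysts, 1.23-fold higher in BELAs (1.20 to 1.25). Per cell, Lrp2 ran from 0 over a median of 314 to 2979 CPM in BELAs and from 0 over a median of 259 to 2268 CPM in VE cysts. The receptors thus lay on opposite sides of 1, both ratios are small beside a 2-fold difference, and the ranges of single cells overlapped almost wholly.

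Amn, which holds cubilin in the membrane, stood at 1226 CPM (1217 to 1235) in VE cells of BELAs and at 627 CPM (619 to 635) in VE cells of VE cysts. It was 1.96-fold higher in BELAs (1.93 to 1.99), a log2 ratio of 0.96 with 5 CPM added, higher than the ratios of 97.9% of genes. Per cell, Amn ran from 0 over a median of 1184 to 3368 CPM in BELAs and from 0 over a median of 501 to 2489 CPM in VE cysts. The call depends on the scaling. Amn passed 2-fold when the total was scaled so that the median gene had no change (log2 ratio 1.08), with the mean of per-cell CPM in place of the pooled level (1.02) and when Cubn and Dab2 were left out of the lineage rule (1.02). The adaptor Dab2 stood at 1679 CPM (1668 to 1690) in VE cells of BELAs and at 1530 CPM (1517 to 1542) in VE cells of VE cysts, and the chaperone gene Lrpap1 at 1311 CPM (1302 to 1321) in VE cells of BELAs and at 1757 CPM (1743 to 1771) in VE cells of VE cysts. Dab2 was 1.10-fold higher and Lrpap1 1.34-fold lower in BELAs. The median cell had 1697 CPM of Dab2 in BELAs against 1406 CPM in VE cysts, and 1296 CPM of Lrpap1 in BELAs against 1636 CPM in VE cysts. All intervals cover counting error only. None of the 5 changed sign under any scaling or filter tried.

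**Figure D1:**
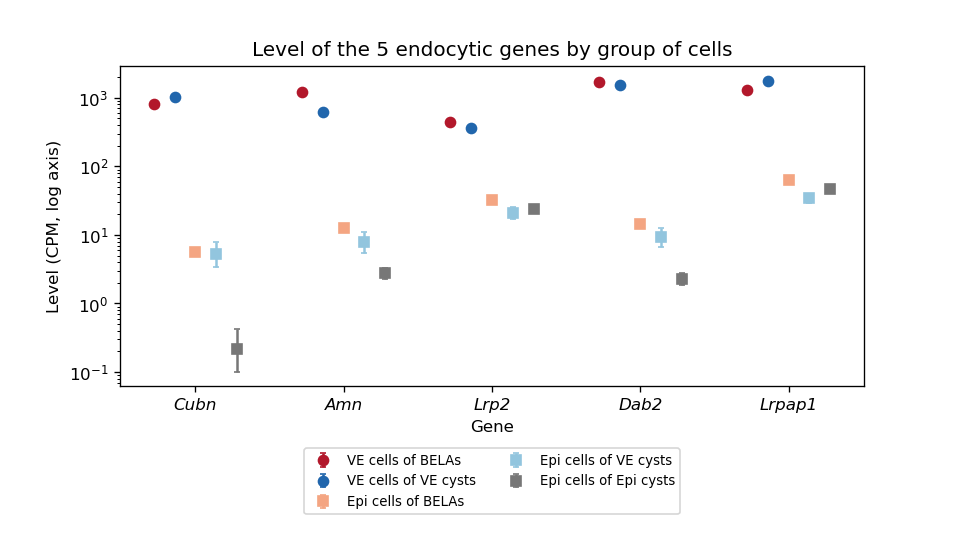
Level of each of the 5 genes in CPM on a log axis, in VE cells of BELAs and VE cysts (circles) and in Epi cells of BELAs, VE cysts and Epi cysts (squares), with exact 95% Poisson intervals as bars. In VE cells all 5 lie between 358 and 1757 CPM, while in Epi cysts Cubn is at 0.220 CPM and Lrp2 and Lrpap1 remain at 23.9 and 46.1 CPM.

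Within single cells, too, the balance between Amn and the other members differed between the libraries. Every VE cell with at least 40000 UMIs was thinned to that number, which kept 514 and left out 28 in BELAs, and kept 473 and left out 104 in VE cysts. The log2 ratio of Amn to Cubn UMIs (1 added to each) had a median of 0.70 in VE cells of BELAs, with quartiles of 0.21 and 1.38, and a median of -0.71 in VE cells of VE cysts, with quartiles of -1.37 and -0.14. The quartile ranges did not overlap. In BELAs 96.9% of cells lay above the median of VE cysts. The log2 ratio of Amn to Lrpap1 shifted likewise, with a median of -0.05 in BELAs and -1.58 in VE cysts, and that of Amn to Dab2 had a median of -0.43 in BELAs and -1.37 in VE cysts. The log2 ratio of Cubn to Lrpap1 shifted little, with a median of -0.82 in BELAs and -0.89 in VE cysts. UMIs of different genes also depend on how well each 3′ end is captured, so these ratios compare libraries and do not give the ratio of the proteins.

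The spread among cells differed by gene and by library. Cubn had a median of 29 UMIs in thinned VE cells of BELAs, with quartiles of 15 and 45, and of 35 UMIs in those of VE cysts, with quartiles of 23 and 54. Lrp2 had a median of 12 UMIs in BELAs, with quartiles of 6 and 23.8, and of 11 UMIs in VE cysts, with quartiles of 7 and 17. Lrp2 was the most variable of the 5. Its variation beyond Poisson counting noise, as a coefficient of variation, was 89.5% in BELAs and 79.1% in VE cysts. For Cubn it was 61.0% in BELAs and 53.6% in VE cysts, and for Dab2 47.7% in BELAs and 35.9% in VE cysts. Amn went the other way, at 41.3% in BELAs and 63.8% in VE cysts, with a median of 48 UMIs in BELAs and 21 in VE cysts. Lrpap1 was the least variable in BELAs (37.4%) and stood at 39.7% in VE cysts. Nearly all VE cells held transcripts of the whole set, 500 of 514 cells in BELAs and 465 of 473 in VE cysts. Lrp2 was at 0 in 13 cells of BELAs and in 4 cells of VE cysts.

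**Figure D2:**
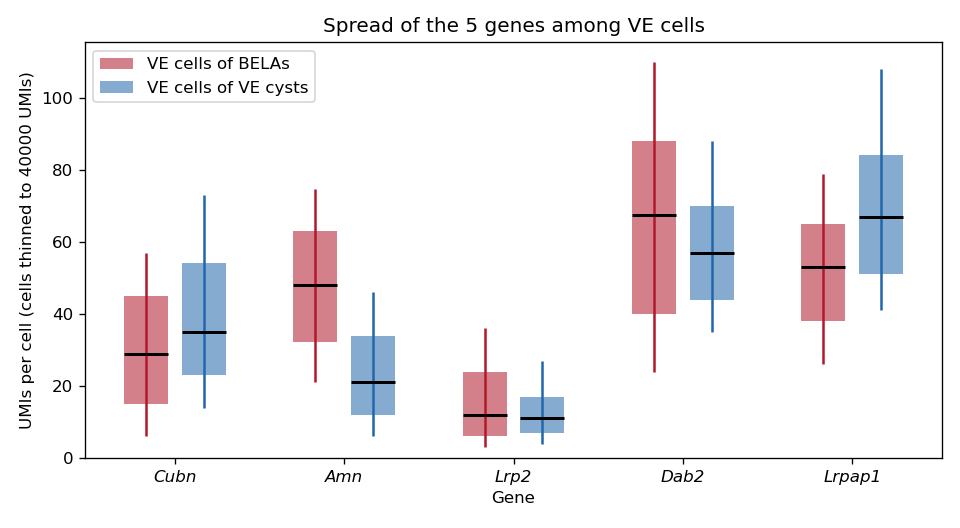
UMIs per cell of each gene among VE cells thinned to 40000 UMIs, in 514 cells of BELAs (red) and 473 of VE cysts (blue), where the black line is the median, the box the quartiles and the thin line the 10th to 90th percentiles. The boxes of Amn barely meet, with medians of 48 UMIs in BELAs and 21 in VE cysts, while those of Lrp2 share most of their range.

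The 5 genes rose and fell together from cell to cell, most of all the 2 receptors and least Amn and Lrpap1. Over the 10 pairs, Spearman's rho across thinned VE cells ran from 0.38 to 0.74 in BELAs (median 0.51, n = 514 cells) and from 0.09 to 0.64 in VE cysts (median 0.32, n = 473). These are descriptions across cells that share 1 library, and no p is given. Cubn and Lrp2 had the highest rho in both libraries, 0.74 in BELAs and 0.64 in VE cysts, and none of 5233 other genes with at least 20 CPM in both had a higher rho with Cubn. For comparison, those 5233 genes had a median rho with Cubn of 0.02 in BELAs, and 5% of them lay above 0.29. Cubn and Dab2 stood at 0.66 in BELAs and 0.42 in VE cysts, and Cubn and its partner Amn at 0.58 in BELAs and 0.37 in VE cysts. Amn and Lrpap1 had the lowest rho in both, 0.38 in BELAs and 0.09 in VE cysts. In VE cysts 680 of the 5233 genes had a higher rho with Amn than Lrpap1 had, and 201 had a higher rho with Dab2 than Lrpap1 had. The 1 pair with the same rho in both was Cubn and Lrpap1, at 0.48. No difference between the libraries in rho was tested.

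The members' rho with the total UMIs of a cell before thinning lay between 0.01 and 0.23 in BELAs and between -0.04 and 0.25 in VE cysts. The sum of the parietal endoderm list had a rho of -0.35 with Amn and 0.30 with Lrpap1 in VE cysts, similar in size to the median over the pairs there, and of 0.32 with Lrpap1 in BELAs. With the ranks of total UMIs and of the parietal endoderm sum taken out as linear terms, the median partial rho over the pairs was 0.51 in BELAs and 0.33 in VE cysts. The weakest pair moved most, as Amn and Lrpap1 had a partial rho of 0.22 in VE cysts. Linear terms do not remove a shared peak at middle values of the sum. In BELAs Cubn stood at 661, 979 and 676 CPM in the lowest, middle and highest of 3 equal bins of the parietal endoderm sum. Amn, Lrp2 and Dab2 were also highest in the middle bin, and Lrpap1 in the highest. The part of this shape in the covariation was not tested. The sum of 7 Epi genes in VE cells had a rho of 0.16 with Cubn in BELAs and 0.31 in VE cysts, and of 0.20 with Lrp2 in BELAs and 0.23 in VE cysts. That list summed to 625 CPM in VE cells of BELAs. Pou5f1, Sox2, Nanog and Fgf4 gave only 35.2, 1.74, 1.05 and 0.697 CPM of it, and Tdgf1, Utf1 and Dnmt3b gave the rest. In VE cells of VE cysts Pou5f1 gave 17.7 of 127 CPM. The sum is thus mostly not a count of the Epi genes of the lineage rule. The part of the Epi sum in the covariation was not tested. When Cubn and Dab2 were left out of the lineage rule, the medians were 0.48 in BELAs and 0.31 in VE cysts.

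In units of transcripts, the link of the receptors was steep. VE cells were ordered by Cubn and divided into 5 bins of equal size. From the lowest to the highest bin, mean Lrp2 UMIs in BELAs were 5.89, 9.15, 14.3, 22.6 and 35.0, a 5.94-fold range. In VE cysts they were 6.82, 8.66, 11.0, 17.0 and 25.6, a 3.75-fold range. Along the same bins Dab2 spanned 2.42-fold in BELAs and 1.58-fold in VE cysts, Amn 2.17-fold in BELAs and 2.06-fold in VE cysts, and Lrpap1 1.74-fold in BELAs and 1.73-fold in VE cysts. Every one of the 4 genes was higher in the highest bin than in the lowest, in both libraries. In BELAs 27 of 514 cells were below the lower quartile for all 5 genes at once, against 3 of 473 cells in VE cysts. Above the upper quartile for all 5 were 9 cells in BELAs and 8 in VE cysts. Cells with some member beyond its upper quartile and another below its lower quartile made up 16.3% in BELAs and 31.7% in VE cysts.

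**Figure D3:**
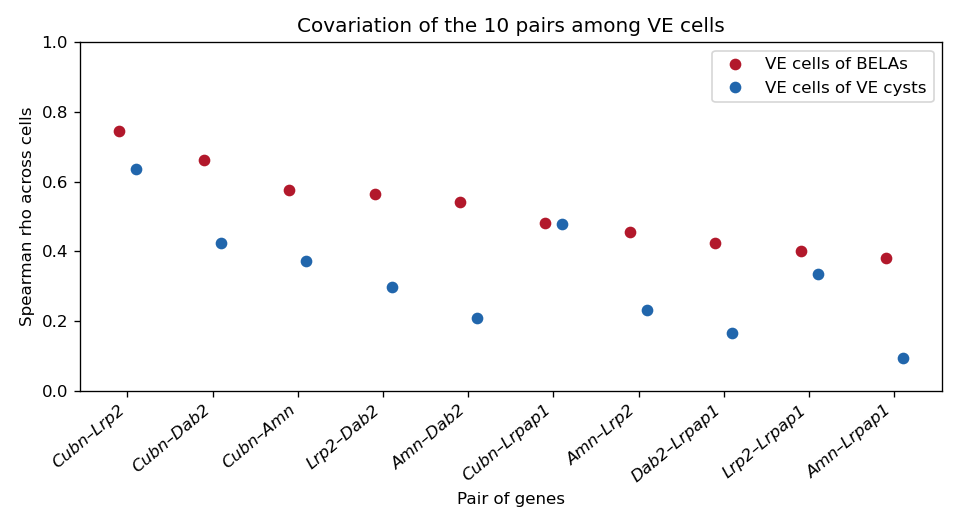
Spearman's rho across VE cells thinned to 40000 UMIs for each of the 10 pairs, in BELAs (red) and VE cysts (blue), ordered by the value in BELAs. Cubn and Lrp2 lead in both libraries, and Amn and Lrpap1 are lowest in both.

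**Figure D4:**
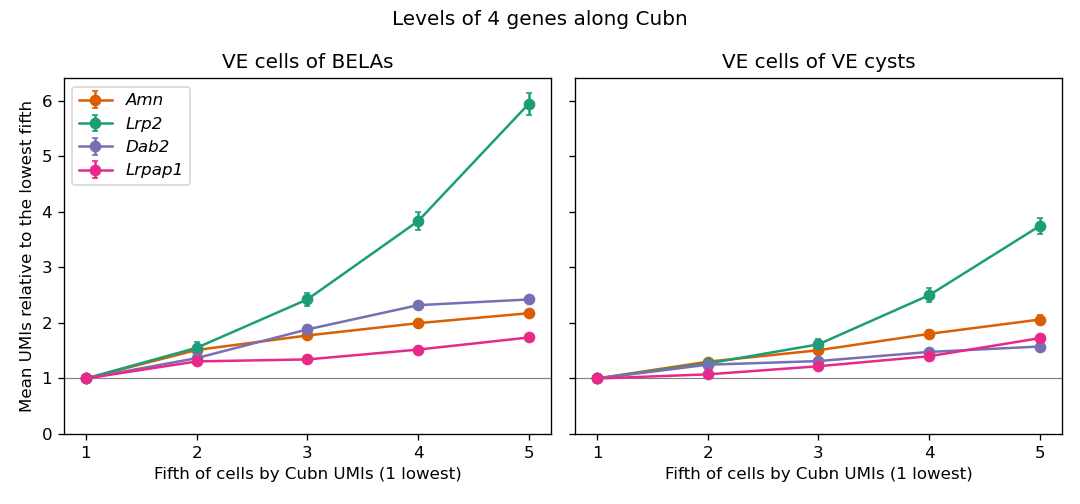
Mean UMIs of Amn, Lrp2, Dab2 and Lrpap1 in 5 bins of VE cells ordered by Cubn UMIs, relative to the lowest bin, in BELAs (left) and VE cysts (right). Bars are 95% counting intervals of the mean in normal approximation, and Lrp2 climbs most, to 5.94-fold in BELAs and 3.75-fold in VE cysts.

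The 51 cells of BELAs with the most anterior visceral endoderm (AVE) transcripts stood lower in all 5 genes than the other VE cells. In a broader split into 3 bins by the same transcripts, only Lrpap1 was lowest in the highest bin. The AVE is a signaling centre that arises in a small group of VE cells. The sum of Cer1, Lefty1, Hhex, Lhx1, Otx2, Eomes, Gsc and Sfrp1 was used to take the top 10% of cells, 51 thinned cells with 34 to 131 such UMIs, against 463 other VE cells with at most 33, of which 97 had none. This AVE-high set is a range of a score and not a cell type, and 29 cells had sums between 20 and 50. It was chosen after a split into 3 equal bins of the score had been seen, in which only Lrpap1 was lower in the highest than in the lowest bin. From the lowest over the middle to the highest bin, Cubn stood at 704, 895 and 717 CPM and Lrp2 at 374, 485 and 442 CPM. Dab2 stood at 1507, 1815 and 1687 CPM, Amn at 1140, 1226 and 1247 CPM, and Lrpap1 at 1326, 1475 and 1183 CPM. All but Amn were thus highest in the middle bin and lower in the highest. Cubn stood at 256 CPM (235 to 279) in the AVE-high set and at 829 CPM (816 to 842) in the other cells, 3.23-fold lower (2.96 to 3.53). Lrp2 stood at 173 CPM (155 to 192) in the AVE-high set and at 463 CPM (453 to 472) in the others, 2.67-fold lower. Amn, at 922 CPM in the AVE-high set and 1235 CPM in the others, was 1.34-fold lower, Dab2, at 1188 CPM in the AVE-high set and 1723 CPM in the others, 1.45-fold, and Lrpap1, at 908 CPM in the AVE-high set and 1374 CPM in the others, 1.51-fold. The 2 receptors were thus the furthest from the other cells, and 34 of the 51 cells lay in the lowest of the 5 Cubn bins and none in the 2 highest. The cells had a median of 82612 UMIs before thinning in the AVE-high set and 93711 in the others. The VE transcription factor list was 0.721 times its level in the others and the parietal endoderm list 0.366 times. The apical surface list was 1.16 times, the yolk sac list 1.21 times, the Epi list 1.15 times and the G2/M list 0.729 times. Utf1 and Dnmt3b gave 1317 of the 1345 Epi list UMIs in the AVE-high set. The trophoblast list, which shares Eomes with the AVE list, was at 11.5 UMIs per cell in the AVE-high set and 1.28 in the others. The part of these shifts in the low levels was not tested. Without these cells the median rho over the pairs was 0.47 and that of Cubn and Lrp2 0.74. The log2 ratio of Amn between BELAs and VE cysts was then 1.03. The pattern was not seen in VE cysts, where AVE transcripts were nearly absent. There the top 10%, 47 cells with 2 to 7 UMIs that were cut among cells tied at 2, had Cubn at 1318 CPM against 959 CPM in the other 426, and all 5 genes were higher in the 47 cells. Beside this, the Epi list was 1.92 times, the trophoblast list 2.26 times, the G2/M list 1.31 times and the yolk sac list 0.779 times its level in the other cells, and their part was not tested. Utf1 and Dnmt3b gave 301 of the 384 Epi list UMIs in the 47 cells. The difference between the libraries was not tested.

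**Figure D5:**
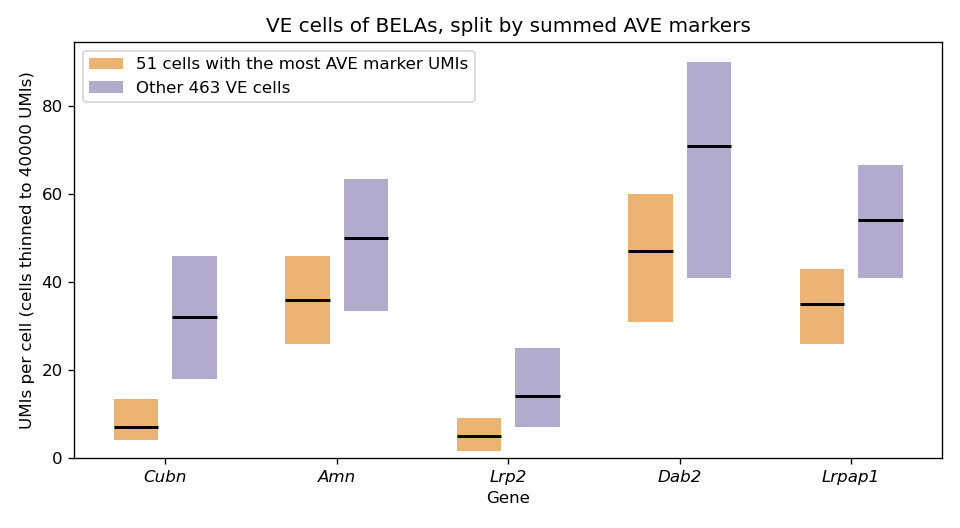
UMIs per cell of each gene in the 51 VE cells of BELAs with the most AVE marker UMIs (orange) and in the other 463 (violet), all thinned to 40000 UMIs, with medians as black lines and quartiles as boxes. For Cubn the boxes are apart, with medians of 7 UMIs in the 51 cells and 32 in the others, and for Amn, Lrp2, Dab2 and Lrpap1 they overlap in part.

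The members followed other VE gene groups differently in the 2 libraries. The apical surface list holds ezrin-family proteins, the scaffolds Slc9a3r1 and Pdzk1 and other microvillus genes. In BELAs its sum had a rho of 0.65 with Dab2, 0.56 with Amn, 0.52 with Cubn, 0.42 with Lrp2 and 0.17 with Lrpap1. In VE cysts the values were 0.35 with Dab2, 0.24 with Amn, 0.06 with Cubn, 0.05 with Lrp2 and -0.22 with Lrpap1. With BELA cells in 3 equal bins of that sum, Lrp2 stood at 617 CPM in the highest and 256 CPM in the lowest bin (2.41-fold), Cubn at 1077 CPM in the highest and 485 CPM in the lowest (2.22-fold) and Dab2 at 2228 CPM in the highest and 1062 CPM in the lowest (2.10-fold). Lrpap1 stood at 1370 CPM in the highest and 1233 CPM in the lowest bin.

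In BELAs Amn followed the sum of a list of yolk sac and extraembryonic VE genes. This list contains apolipoproteins and other serum carriers, and also Cited1, Rhox5 and the lysosomal protease gene Ctsz. Ctsz gave 1405 of the 4935 CPM of the list in VE cells of BELAs. Single genes differed in their rho with Amn there. It was 0.70 for Ctsz, 0.53 for Apom, 0.44 for Cited1, 0.40 for Apob and 0.37 for Ttr. For Rhox5 it was 0.35, for Apoa4 0.34, for Apoa1 0.23, for Rbp4 0.11 and for Afp -0.10. The sum of the list had a rho of 0.60 with Amn in BELAs, above 0.45 for Dab2, 0.33 for Cubn, 0.21 for Lrp2 and 0.16 for Lrpap1. In VE cysts the rho with Amn was 0.11. Over 3 equal bins of the sum in BELAs, Amn stood at 1554 CPM in the highest and 827 CPM in the lowest bin (1.88-fold). In VE cysts Amn instead fell with the parietal endoderm sum (rho -0.35), at 478 CPM in the highest and 764 CPM in the lowest bin, 1.60-fold lower. In BELAs that rho was -0.08. Lrpap1 took the opposite course, with a rho of 0.32 with the parietal endoderm sum in BELAs and 0.30 in VE cysts. In the lowest bin by parietal endoderm transcripts Amn stood at 1205 CPM in BELAs against 764 CPM in VE cysts, but the bins cover different ranges of the sum, 21 to 336 UMIs in BELAs and 8 to 916 UMIs in VE cysts. With the sum of G2/M genes the rho lay between -0.12 and 0.09 over both libraries.

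The genes most like each member were taken as the 3 with the highest value of the lower of both libraries' rho, out of the 5233 genes other than the 5 members. For Cubn these were Calr (rho 0.53 in BELAs and 0.58 in VE cysts), a chaperone of the endoplasmic reticulum, Ctsz (0.65 in BELAs and 0.53 in VE cysts), a lysosomal protease, and Atp2b1 (0.52 in BELAs and 0.53 in VE cysts), a calcium pump of the plasma membrane. Lrp2 shared Atp2b1 (0.49 in BELAs and 0.43 in VE cysts) and Calr (0.56 in BELAs and 0.39 in VE cysts) with Cubn and added Nrg1, the growth factor neuregulin (0.51 in BELAs and 0.39 in VE cysts). Amn had Ctsz (0.70 in BELAs and 0.46 in VE cysts), the lysosomal protease gene Ctsc (0.58 in BELAs and 0.46 in VE cysts) and Npl, an enzyme of sialic acid breakdown (0.45 in BELAs and 0.42 in VE cysts). Ctsz was also on the yolk sac list. Ctsc stood at 765 CPM in VE cells of BELAs and 348 CPM in VE cells of VE cysts. Dab2 had Clic6 (0.52 in BELAs and 0.44 in VE cysts), Gcsh (0.51 in BELAs and 0.41 in VE cysts) and Lgmn, a lysosomal protease (0.53 in BELAs and 0.37 in VE cysts). Lrpap1 had Ppib, a folding enzyme of the endoplasmic reticulum (0.47 in BELAs and 0.57 in VE cysts), Ctsl, a lysosomal protease (0.45 in BELAs and 0.51 in VE cysts), and Srgn, a proteoglycan core protein that was also on the parietal endoderm list (0.44 in BELAs and 0.48 in VE cysts).

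Among the other genes of the pathway, few differed by 2-fold between VE cells of BELAs and of VE cysts. Of 14 other LDL receptor family and sortilin genes, 7 reached 10 CPM in either group. In this list 1 gene was past 2-fold, the sorting receptor Sorl1 at 8.29 CPM in BELAs against 21.9 CPM in VE cysts. Lrp10 stood at 56.6 CPM in BELAs against 63.1 CPM in VE cysts. Among other adaptors and motors, Dab1, a relative of Dab2, was past 2-fold lower in BELAs, at 5.69 CPM in BELAs against 19.6 CPM in VE cysts. Myo6, the motor that moves Dab2-bound vesicles inward, stood at 254 CPM in BELAs against 277 CPM in VE cysts, and Snx17 at 82.4 CPM in BELAs against 68.6 CPM in VE cysts. None of 15 clathrin coat and AP-2 genes, 14 genes of endosome sorting and recycling and 6 chaperone genes passed 2-fold. The clathrin light chain gene Clta stood at 958 CPM in BELAs against 852 CPM in VE cysts, the heavy chain gene Cltc at 560 CPM in BELAs against 629 CPM in VE cysts, Rab11a at 395 CPM in BELAs against 473 CPM in VE cysts, Vps35 at 362 CPM in BELAs against 343 CPM in VE cysts, the chaperone gene Calr at 1081 CPM in BELAs against 1224 CPM in VE cysts, and the chaperone gene Hspa5 at 712 CPM in BELAs against 796 CPM in VE cysts.

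Of 15 ligand and carrier genes, 10 of which reached 10 CPM in either group, 3 were past 2-fold higher and 2 past 2-fold lower in BELAs. Apoa1, the apolipoprotein of HDL that cubilin binds, stood at 259 CPM in VE cells of BELAs and 55.9 CPM in VE cells of VE cysts (4.64-fold higher), Apob at 162 CPM in BELAs against 66.2 CPM in VE cysts, and the transferrin gene Trf at 29.4 CPM in BELAs against 7.86 CPM in VE cysts. The retinol carrier gene Rbp4, a ligand of megalin, stood at 97.3 CPM in BELAs against 568 CPM in VE cysts (5.84-fold lower), and Mdk at 916 CPM in BELAs against 2037 CPM in VE cysts. Apoe stood at 5222 CPM in BELAs against 4816 CPM in VE cysts. Of 10 apical surface genes 2 were past 2-fold, both higher in BELAs, Rdx (radixin, which ties actin to the membrane) at 692 CPM in BELAs against 300 CPM in VE cysts and Slc9a3r1 at 496 CPM in BELAs against 217 CPM in VE cysts. Their summed level was 1876 CPM in BELAs against 937 CPM in VE cysts.

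Between lineages, the 3 genes that were not in the rule, Amn, Lrp2 and Lrpap1, were at least 2-fold higher in VE than in Epi cells of BELAs, where 15.7% of 8401 genes were so and 9.67% were at least 2-fold lower. Amn stood at 1226 CPM in VE and 12.5 CPM in Epi cells, and the pooled folds of Lrp2 and Lrpap1 were 13.7 and 21.1. With Cubn and Dab2 out of the lineage rule, the log2 ratio of Amn was 4.99 in place of 6.14, that of Lrpap1 3.85 in place of 4.29 and that of Lrp2 3.45 in place of 3.59. The same 3 genes were at least 2-fold higher in VE cells of VE cysts, where 21.9% of 8736 genes were so and 12.5% were at least 2-fold lower. Cubn and Dab2 were also higher in both libraries, which the rule fixed. Lrp2 and Lrpap1 were not restricted to VE cells. Lrp2 stood at 439 CPM in VE cells of BELAs, 32.0 CPM (30.7 to 33.4) in their Epi cells and 23.9 CPM (22.4 to 25.5) in Epi cysts, which were grown without VE cells. Lrpap1 stood at 1311 CPM in VE cells of BELAs, 62.3 CPM (60.5 to 64.1) in their Epi cells and 46.1 CPM (44.1 to 48.2) in Epi cysts. Thinned to 40000 UMIs, a Lrp2 UMI was in 97.5% of VE cells of BELAs, 63.3% of their Epi cells and 54.1% of Epi cyst cells, and a Lrpap1 UMI in 99.8%, 87.1% and 82.3%. The median depths before thinning were 90251, 78973 and 60131 UMIs. Of the rest of the pathway, 1 of 14 LDL receptor family genes, 3 of 10 adaptors, 4 of 15 clathrin and AP-2 genes, 8 of 14 endosome genes, 3 of 6 chaperone genes, 8 of 15 ligand genes and 7 of 10 apical surface genes were past 2-fold higher in VE cells of BELAs, and 3 LDL receptor family genes, 1 ligand gene and 1 apical surface gene were past 2-fold lower. Myo6 stood at 254 CPM in VE and 16.8 CPM in Epi cells of BELAs, and the endosomal chloride exchanger gene Clcn5 at 139 CPM in VE and 17.1 CPM in Epi cells.

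Low levels of the other 3 genes were also counted in Epi cells of BELAs. Cubn, Amn and Dab2 stood at 0.686%, 1.02% and 0.854% of their VE level in Epi cells of BELAs, and Lrp2 and Lrpap1 at 7.29% and 4.75%. Over 26 genes with at least 100 CPM in VE cells and at most 1 CPM in Epi cysts the median was 0.861%, with quartiles of 0.705% and 1.24%. Amn lay within these quartiles, and Lrp2 and Lrpap1 lay above them. The rule itself holds down Cubn and Dab2 in Epi cells, so nothing is read from their shares. In VE cysts the values were 0.524% for Cubn, 1.26% for Amn, 0.607% for Dab2, 5.84% for Lrp2 and 1.94% for Lrpap1. Over 24 genes the median there was 0.569%, with quartiles of 0.389% and 0.801%. Amn, Lrp2 and Lrpap1 all lay above these quartiles, and the value of Amn rests on 34 UMIs in Epi cells. The 26 and the 24 genes include Cubn, Gata6 and Sox17, genes of the rule that the rule also holds down in Epi cells. Medians without them were not taken. Against Epi cysts, Epi cells of BELAs had 3 of 5 genes at least 2-fold higher and none lower, where 1.28% of 7823 genes were at least 2-fold higher and 1.48% lower. These were Cubn at 5.55 CPM in BELAs against 0.220 CPM in Epi cysts, Amn at 12.5 CPM in BELAs against 2.76 CPM in Epi cysts, and Dab2 at 14.3 CPM in BELAs against 2.27 CPM in Epi cysts. Cubn was below 10 CPM in both groups and so was not among the 7823 genes. Of the 4 members that were, Amn and Dab2 passed 2-fold. With a margin of 4 times between the marker sums, which left out 12 of the 868 cells, 1 of the 3, Dab2, was still past 2-fold. With Cubn and Dab2 out of the rule, which gave 519 VE and 891 Epi cells in BELAs, the log2 ratios were 2.20 for Cubn, 2.37 for Amn and 2.69 for Dab2, in place of 1.01, 1.17 and 1.41. Free RNA and cells of mixed content cannot be told apart from expression at these levels. The 1 cell called VE in Epi cysts held 72 UMIs of Cubn, 166 of Dab2, 51 of Lrpap1, 7 of Amn and 3 of Lrp2.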

How the data were processed

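Libraries of 3 aggregate types, 1 each, were made with 10x Genomics 3′ chemistry. The authors aligned reads to mm10 and counted UMIs with Cell Ranger 4.0.0, and the deposited tables hold raw UMI counts per gene and barcode. Strand handling in the counting is not given in the sources used here. After the study's filter, cells were split by the lineage rule, and ties between the marker sums went to Epi. Levels are CPM, a gene's UMIs summed over the cells of a group and scaled to their total, with exact Poisson intervals. Intervals of folds are exact and conditional on the summed counts. Calls of 2-fold use log2 ratios with 5 CPM added, which understates changes of low genes. Shares over all genes cover those with at least 10 CPM in either group, while counts for the members and the lists are out of all their genes. Spearman correlations were computed on cells thinned once to 40000 UMIs. Named genes were the 5, the 3 most alike to each, and, from 7 pathway lists, those past 2-fold with at least 10 CPM in either group and the 2 of highest level in VE cells of BELAs; Clcn5 and the AVE-high set were chosen after values were seen. Some results under this rule are not reported here. The genes and lists were chosen with earlier results of these data known. Marker lists of other cell types were counted alike between VE cells of BELAs and VE cysts. Past 2-fold higher and lower in BELAs were 0 and 1 of 8 VE genes, 5 and 0 of 8 AVE genes, 0 and 10 of 13 parietal endoderm genes, 5 and 2 of 14 yolk sac and extraembryonic VE genes, 2 and 0 of 7 Epi genes, 2 and 0 of 8 trophoblast genes, and 0 and 0 of 8 mesoderm and 10 G2/M genes. Scrublet (scanpy 1.11.5) called 16, 16 and 3 of the 2220, 1076 and 881 barcodes of BELAs, Epi cysts and VE cysts as doublets, which were left out only as an alternative. The depth gives 1 UMI a value of 0.0183 CPM in VE cells of BELAs and 0.0282 CPM in VE cells of VE cysts. The steps were tested on simulated data. Python 3.11.15, numpy 2.4.6, scipy 1.17.1 and pandas 2.3.3 were used.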

Additional observations from a re-analysis of the deposited data

How the results depend on the processing

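No member changed sign between VE cells of BELAs and VE cysts, between VE and Epi cells of BELAs or between Epi cells of BELAs and Epi cysts under any of the alternatives, and no rho of a pair did. The count of members past 2-fold between VE cells of BELAs and VE cysts was 0, but 1 (Amn) with median scaling, with the mean of cell CPM and with the lineage rule without Cubn and Dab2, and, as alternatives chosen after seeing the data, 1 without the AVE-high cells of BELAs and 0 with cells of at least 40000 UMIs or with the parietal endoderm list out of the total. The log2 ratio of Amn ran from 0.94 to 1.08. The count between Epi cells of BELAs and Epi cysts was 3, with Cubn included though below 10 CPM in both groups. It was 1 with a margin in the lineage rule, 2 without Scrublet doublets and 0 with 20 CPM added. In VE cysts the median rho was 0.32, and 0.26 with thinning to 20000 UMIs, more than the tolerance of 0.05. In BELAs it ran from 0.47 to 0.54, partial rho and leaving out the AVE-high cells included. No paired analysis was possible because each aggregate type had 1 library, so no replicate could be left out either. Depth limits what single cells show of Lrp2, which was at a median of 12 UMIs in thinned VE cells of BELAs and 11 in VE cysts. The causes of these shifts were not tested.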
